A study of Mus musculus with 9 samples.

Results

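The genes described here are Rhot1, Rhot2, Trak1, Trak2, Kif5b, Myo10, Myo19, Tnfaip2, Gap43 and Gja1, which encode proteins of mitochondria trafficking, of nanotubes and tumor microtubes, and of gap junctions. They were chosen by name, as 10 of the 49315 genes in the count table, and all 10 were measured and passed the filter on low counts in each comparison. GFP+ SB28 cells, a mouse glioblastoma line of the C57BL6 background, were co-cultured for 2 days at equal numbers with primary neonatal astrocytes of mito::mKate2 mice (C57BL6), in which mKate2, a red fluorescent protein, labels the mitochondria. The medium was DMEM F12 with FBS, N2 supplement, EGF and FGF (the labels and the study's methods differ in the percentages of FBS and N2). Per the study's methods, the astrocytes were stained with the dye CellTrace Violet before co-culture. No other treatment is given for any group. Cells from 3 co-cultures were sorted into astrocytes (the donor cells), mKate2+ SB28 cells (which had received astrocyte mitochondria) and mKate2- SB28 cells (which had not), giving 3 RNA-seq libraries a group. All SB28 cells, mKate2- cells included, came from co-culture with astrocytes, and no culture of SB28 cells or astrocytes alone was used here. Whether each SB28 cell had touched an astrocyte was not measured.

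Mitochondria travel along microtubules and actin filaments. The Miro GTPases Rhot1 and Rhot2 sit in the outer mitochondrial membrane and bind the adaptors Trak1 and Trak2, which in turn bind kinesin-1 (whose common heavy chain is Kif5b) and dynein, while Myo19 is a myosin that attaches mitochondria to actin. Cells can also be joined by thin actin-based tunneling nanotubes, by thicker tumor microtubes and by gap junctions. Myo10 is a motor of filopodial tips, Tnfaip2 (M-Sec) promotes nanotube formation together with Ral GTPases and the exocyst, Gap43 is a growth cone protein also found in glioma microtubes, and Gja1 is connexin 43, the main gap junction protein of astrocytes.

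Of the 10 genes, 8 passed the test (adjusted p below 0.05) between astrocytes and mKate2- SB28 cells, where 63.1% of all genes tested passed, and 7 between astrocytes and mKate2+ SB28 cells (60.1% of all genes). Between mKate2+ and mKate2- SB28 cells none of the 10 passed, and neither did any other gene (0%). In astrocytes, Gap43 was 8-fold higher than in mKate2- SB28 cells (95% interval 3.78 to 16.8) and Myo10 2.07-fold higher (1.78 to 2.41), while Tnfaip2 was 3.84-fold higher in mKate2- SB28 cells (3.14 to 4.66). Kif5b and Rhot2 were higher in astrocytes by less, and Rhot1, Myo19 and Gja1 were higher in mKate2- SB28 cells by less. Trak1 and Trak2 did not pass the test. Gap43 passed the filter on low counts through the astrocyte libraries alone, which bears on the direction it could show. Levels are given in CPM (reads of a gene scaled to a common library total, with TMM factors that adjust for composition). The test between groups was the quasi-likelihood test of edgeR, with Benjamini-Hochberg adjustment over all genes tested.

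The libraries held between 24454561 and 39287841 counts. The libraries labelled as astrocytes carried the glutamate transporter Slc1a3 at 174, 171 and 228 CPM, compared with 0.608 to 2.34 CPM in the SB28 libraries, Apoe at 252 to 266 CPM and Aldh1l1 at 141, 108 and 166 CPM. Gfap was low at 8.9, 3.31 and 18.8 CPM, S100b was at most 2.09 CPM, and the astrocyte connexin Gjb6 had 0 counts in all 9 libraries. The oligodendrocyte lineage factor Olig1 stood at 545, 233 and 294 CPM and Olig2 at 270, 154 and 150 CPM in astrocytes, where Cspg4 was at 18.6 to 27.1 CPM and Pdgfra at 10.3 to 22.9 CPM, while Sox10 was at most 0.0592 CPM, Mog at most 0.137 CPM and Mbp at most 1.18 CPM. The 8 listed oligodendrocyte lineage markers summed to 430 to 854 CPM in astrocytes and to 17.3 to 26.6 CPM in SB28 libraries. The 12 astrocyte markers summed to 940, 824 and 1500 CPM in astrocytes and to 188 to 235 CPM in SB28 libraries. Their most abundant gene in SB28 cells was Clu or Sox9, whereas Slc1a3 in mKate2- and mKate2+ cells was at 0.763% and 0.448% of its astrocyte level. The progenitor genes Nes (297 to 341 CPM) and Sox2 (293 to 496 CPM) were also abundant in astrocytes.

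Astrocyte replicate 3 differed from the other astrocyte libraries in some astrocyte markers, and mKate2+ replicate 2 stood apart from the other SB28 libraries over all genes. Astrocyte replicate 3 had Aldoc at 350 CPM, compared with 56.1 and 32.7 CPM in the other astrocyte libraries, and Aqp4 at 57.7 compared with 5.69 and 6.6 CPM. Over all genes it was little farther from its group than the others, with a root mean square log2 difference of 0.73, compared with 0.687 and 0.613. The root mean square log2 difference of mKate2+ replicate 2 to its group, over 13450 genes, was 0.575, compared with 0.414 to 0.471 for the other SB28 libraries. It had the lowest level of the 6 SB28 libraries for 5 of the 10 genes (Rhot2, Trak2, Kif5b, Myo10 and Myo19) and the highest for Gja1. Leaving out either library changed some calls or moved called fold changes by over 1.5 times. For genes whose fold change is printed, the value without that library is then given as well, or the loss of the gene from the test.

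**Figure D1:**
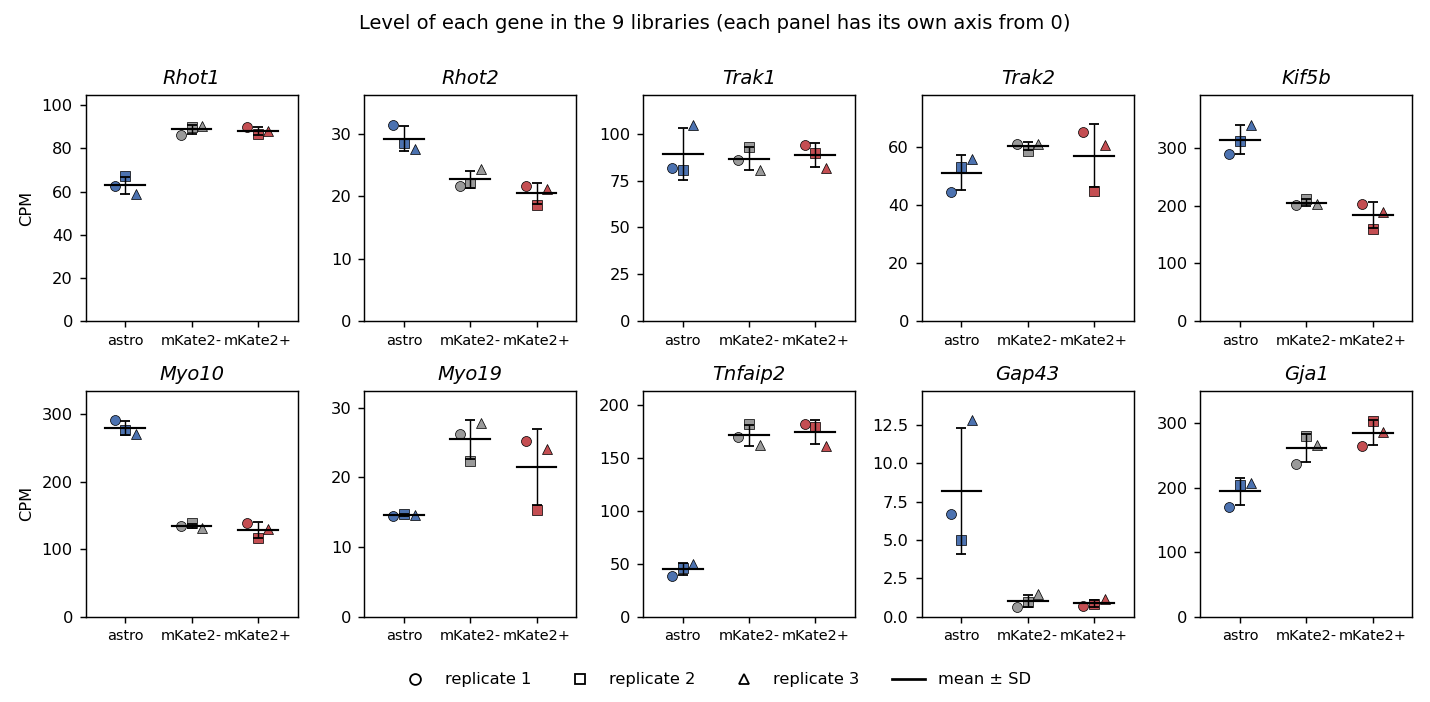
Level of each of the 10 genes in CPM (each vertical axis starts at 0 and has its own scale) in astrocytes and in mKate2- and mKate2+ SB28 cells. Points are the 3 libraries of a group, marked by replicate number, and black lines are the mean ± SD. Gap43 and Myo10 lay above, and Tnfaip2 below, all SB28 libraries in the 3 astrocyte libraries, while the mKate2- and mKate2+ libraries overlapped for every gene except Rhot2.

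The Miro genes went in opposite directions. Rhot1 (chr11:80209019-80267907 in GRCm38, plus strand) was at 62.5, 67.1 and 59.1 CPM in astrocytes, at 86.2, 90 and 90.2 CPM in mKate2- cells and at 90, 86.5 and 87.9 CPM in mKate2+ cells. All 6 SB28 libraries were above all 3 astrocyte libraries. The log2 fold change of Rhot1 was -0.50 ± 0.095 (SE) for astrocytes against mKate2- cells (adjusted p = 0.00241) and -0.49 ± 0.11 against mKate2+ cells (adjusted p = 0.00597). Rhot2 (chr17:25838457-25844851, minus strand) was at 31.5, 28.6 and 27.6 CPM in astrocytes, 21.7, 22.1 and 24.3 CPM in mKate2- cells and 21.6, 18.6 and 21.2 CPM in mKate2+ cells. It was thus higher in every astrocyte library, by a log2 fold change of 0.36 ± 0.12 against mKate2- cells (adjusted p = 0.0321) and 0.51 ± 0.14 against mKate2+ cells (adjusted p = 0.0137). The first of these calls was lost without 4 of the 6 libraries, each left out in turn, at adjusted p = 0.0518 to 0.111. Rhot2 shares 1307 exonic bases, 29.424% of its exonic length, with Gm20683 on the same strand, to which 3 to 63 reads a library were assigned, and since only unique gene hits were counted, reads that fit both genes are in neither count.

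The balance within the Miro pair differed between the cell types. Per exonic length, Rhot1 made up 54.3%, 58.4% and 56.2% of the summed Rhot1 and Rhot2 level in astrocytes, 70.4%, 70.9% and 69.0% in mKate2- cells and 71.4%, 73.6% and 71.3% in mKate2+ cells. The length of Rhot2 used here includes the bases shared with Gm20683, so the Rhot1 share may be overstated in every group. The astrocyte share was 13.8 percentage points below that of mKate2- cells and 15.8 below that of mKate2+ cells, with no overlap between the groups. The share was also higher in all 3 mKate2+ than in all 3 mKate2- libraries, by 1.98 points. Each of these differences had p = 0.1 in an exact two-sided permutation test (0.171 adjusted over 12 tests of shares), which is the smallest p that 3 libraries against 3 can give.

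The Trak adaptors, which link Miro to the motors, were at similar levels in all groups. Trak1 (chr9:121297502-121474918, plus strand) was at 81.8, 80.9 and 105 CPM in astrocytes, 86.3, 93.2 and 80.8 CPM in mKate2- cells and 94.3, 90 and 81.8 CPM in mKate2+ cells. The groups overlapped, and the 95% interval of its log2 fold change for astrocytes against mKate2- cells was -0.27 to 0.34 (adjusted p = 0.826). Trak2 (chr1:58900449-58973430, minus strand) was at 44.4, 53.1 and 55.9 CPM in astrocytes, 61.2, 58.8 and 61.0 CPM in mKate2- cells and 65.4, 45.0 and 60.9 CPM in mKate2+ cells. All mKate2- libraries were above all astrocyte libraries, but the log2 fold change of -0.24 ± 0.12 did not pass the test (adjusted p = 0.104), and in mKate2+ cells replicate 2 lay within the astrocyte range. Trak1 made up 49.5% ± 2.87 (SD, n = 3) of the pair per exonic length in astrocytes, 44.8% ± 2.26 in mKate2- cells, with 47.0% ± 5.3 in mKate2+ cells. These shares overlapped.

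Of the motors, Kif5b (chr18:6201002-6242174, minus strand) was at 290, 313 and 341 CPM in astrocytes, 202, 212 and 203 CPM in mKate2- cells and 204, 160 and 190 CPM in mKate2+ cells. Every astrocyte library exceeded every SB28 library, with a log2 fold change of 0.61 ± 0.10 against mKate2- cells (adjusted p = 0.00136) and 0.77 ± 0.14 against mKate2+ cells (adjusted p = 0.00238). Kif5c, a kinesin-1 heavy chain best known from neurons, differed by more, at 61.8, 62.2 and 78.0 CPM in astrocytes and 16.8 to 18.9 CPM in mKate2- cells (log2 fold change 1.92 ± 0.14, adjusted p = 2.51e-05). As a result, Kif5b made up 80.3% ± 1.12 (SD, n = 3) of the 3 kinesin-1 heavy chains per exonic length in astrocytes, compared with 91.0% ± 0.669 in mKate2- cells and 90.7% ± 1.11 in mKate2+ cells. The astrocyte shares did not overlap those of either SB28 group (exact two-sided permutation test, p = 0.1 for each, 0.171 adjusted). The third heavy chain, Kif5a, made up at most 0.62% of the sum in any library.

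Myo19 (chr11:84880148-84911226, plus strand), the mitochondrial myosin, was higher in SB28 cells. It was at 14.5, 14.8 and 14.6 CPM in astrocytes and at 26.3, 22.3 and 27.8 CPM in mKate2- cells, with a log2 fold change of -0.80 ± 0.13 (adjusted p = 0.00126). In mKate2+ cells it was at 25.2, 15.3 and 24.1 CPM, so that replicate 2 came close to the astrocyte range. Against mKate2+ cells the log2 fold change of -0.56 ± 0.21 missed the threshold (adjusted p = 0.0508), and without mKate2+ replicate 2 it was -0.76 (adjusted p = 0.0048). Exons of Myo19 overlap those of Znhit3 by 277 bases and those of Pigw by 106 bases on the opposite strand, and whether the counting used strand is not given in the sources used here.

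Myo10 (chr15:25622525-25813673, plus strand), the filopodial motor, had the reverse pattern. Its levels were 291, 277 and 270 CPM in astrocytes, 134, 138 and 132 CPM in mKate2- cells and 139, 116 and 130 CPM in mKate2+ cells. The astrocyte libraries lay far above the others, with a log2 fold change of 1.05 ± 0.093 against mKate2- cells (adjusted p = 6.21e-05) and 1.12 ± 0.12 against mKate2+ cells (adjusted p = 0.000193). Its level in mKate2- and mKate2+ cells was 48.2% and 45.9% of that in astrocytes.

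Tnfaip2 (chr12:111442469-111455018, plus strand), the nanotube gene, showed the largest difference in favor of SB28 cells among the 10. Astrocytes had 38.8, 45.9 and 49.7 CPM, mKate2- cells 169, 182 and 162 CPM and mKate2+ cells 182, 179 and 161 CPM. Every SB28 library lay far above every astrocyte library, and the log2 fold changes were -1.94 ± 0.12 against mKate2- cells (adjusted p = 1.62e-05) and -1.95 ± 0.14 against mKate2+ cells (adjusted p = 3.31e-05). Tnfaip2 is also known from myeloid cells, whose markers Cx3cr1, Aif1, Itgam and Tyrobp were each at most 0.0362 CPM in the SB28 libraries. Of the 10 listed microglia and macrophage markers, only Tmem119 was above 1 CPM in SB28 cells, at 46.6 to 66.4 CPM. An antisense gene, Gm40578, overlaps 314 exonic bases (6.3%) of Tnfaip2.

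Gap43 (chr16:42248442-42340651, minus strand), the growth cone and microtube gene, had the lowest counts of the 10 genes. Its counts were 163, 168 and 465 in astrocytes, 18, 34 and 44 in mKate2- cells and 24, 30 and 38 in mKate2+ cells, which correspond to 6.72, 4.97 and 12.8 CPM, to 0.652, 0.941 and 1.45 CPM and to 0.667, 0.829 and 1.12 CPM. The lowest astrocyte library stood above the highest SB28 library, but the spread among astrocytes was wide (SD 50.3% of the mean), with replicate 3 highest. In both astrocyte comparisons Gap43 passed the filter on low counts through the astrocyte libraries alone, which bears on the direction it could show. Gap43 was higher in astrocytes by a log2 fold change of 3.00 ± 0.46 against mKate2- cells (adjusted p = 0.000868) and 3.22 ± 0.44 against mKate2+ cells (adjusted p = 0.000612). Without astrocyte replicate 3, which was also the library with the most Aldoc and Aqp4, the values were 2.51 (adjusted p = 0.000533) and 2.75 (adjusted p = 0.000568). Mean Gap43 levels in mKate2- and mKate2+ cells were 12.4% and 10.7% of the astrocyte mean, compared with 0.763% and 0.448% for Slc1a3 and 1.08% and 0.977% for Apoe. Not all astrocyte markers were so low in SB28 cells. Clu was at 62.5 to 130 CPM in astrocytes and 94.1 to 141 CPM in SB28 libraries. Sox9 was at 167 to 182 and 74.2 to 110 CPM, and Aldh1l1 at 108 to 166 and 4.97 to 9.21 CPM. Fewer cells with the Gap43 transcript and less of it in each cell cannot be told apart in such bulk libraries. The 7 neuronal markers summed to 53.9, 95.7 and 85.5 CPM in astrocytes and to 39 to 48.1 CPM in SB28 libraries. Of these, Map2 was at 28.2 to 42.8 CPM in astrocytes and 16.4 to 22 CPM in SB28 cells, and Tubb3 was at 9.14 to 13.3 and 17.9 to 27 CPM. Stmn2 was at 11.5, 42.0 and 37.2 CPM in astrocytes and at most 1.45 CPM in SB28 cells, while Rbfox3 had 0 counts in all libraries and Dcx was at most 0.124 CPM. The part of other cells in the astrocyte sort was not tested.

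Gja1 (chr10:56377330-56402513, plus strand), connexin 43, was abundant in both cell types and higher in SB28 cells. It was at 170, 205 and 208 CPM in astrocytes, 237, 280 and 267 CPM in mKate2- cells and 265, 304 and 287 CPM in mKate2+ cells. No SB28 library was as low as the highest astrocyte library, and the log2 fold change was -0.43 ± 0.12 against mKate2- cells (adjusted p = 0.0156) and -0.55 ± 0.13 against mKate2+ cells (adjusted p = 0.00807). The first call was lost without mKate2- replicate 2 (-0.39, adjusted p = 0.0625) or mKate2- replicate 3 (-0.42, adjusted p = 0.058).

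Although Gja1 itself was lower in astrocytes, it was a larger part of their connexins. Per exonic length, Gja1 made up 66.5% ± 4.54 (SD, n = 3) of all connexin transcripts in astrocytes, compared with 40.1% ± 1.56 in mKate2- cells and 40.6% ± 0.416 in mKate2+ cells. These shares did not overlap (exact two-sided permutation test, p = 0.1 for each SB28 group, 0.171 adjusted), and the difference of 26.3 percentage points to mKate2- cells was 21.8 when the longest transcript replaced the summed exons. Gjc1 made up 16.9% ± 1.54 in mKate2- cells and 6.45% ± 0.62 in astrocytes.

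**Figure D2:**
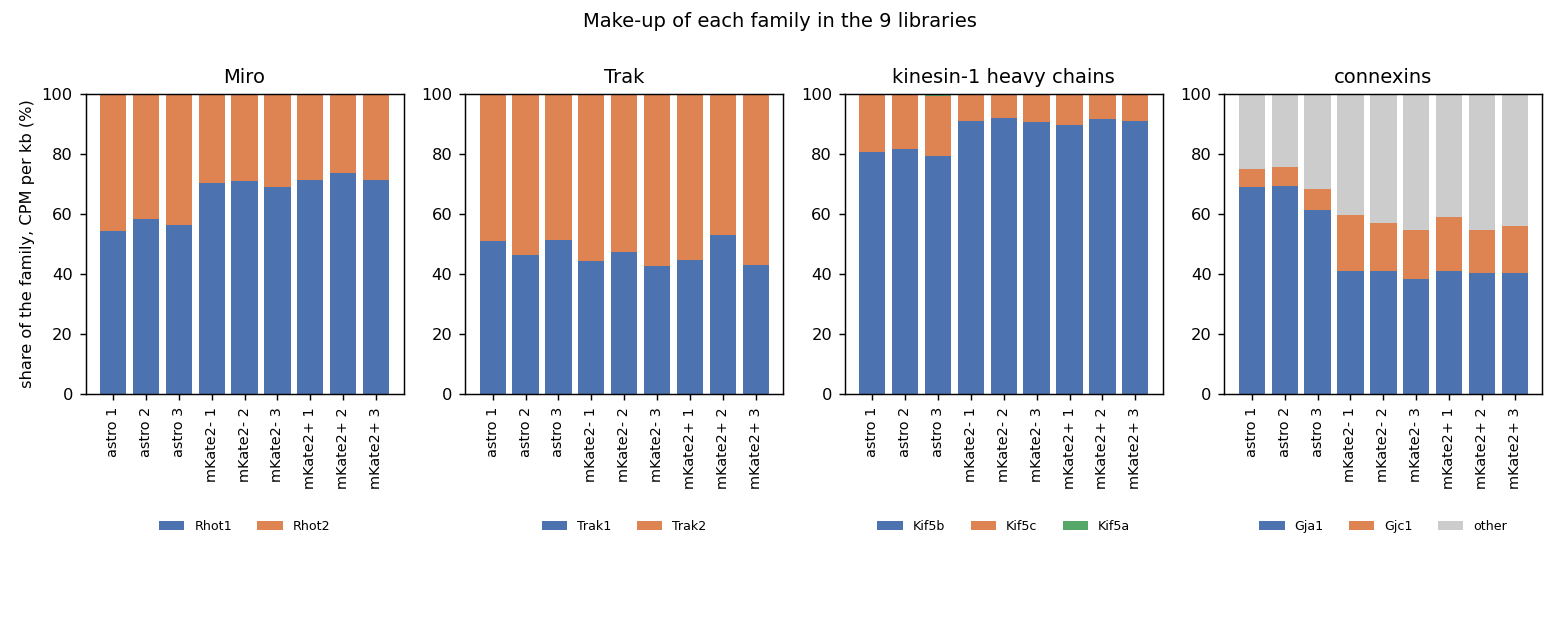
Share of each gene in its family in every library, computed from CPM per kb of exonic length (vertical axis, percent, bars stacked to 100). In the 3 astrocyte libraries Rhot1 and Kif5b were smaller parts of their families, and Gja1 a larger part of the connexins, than in the 6 SB28 libraries, while the Trak shares overlapped.

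With CPM divided by exonic length, levels can be set beside each other. In astrocytes Kif5b was highest (39.4 ± 3.18 CPM per kb, SD, n = 3), followed by Myo10 (27.6 ± 1.09) and Gja1 (18.9 ± 2.09). Tnfaip2 (8.99 ± 1.11), Rhot1 (8.49 ± 0.542), Trak2 (7.21 ± 0.847), Trak1 (7.10 ± 1.08), Rhot2 (6.58 ± 0.46) and Gap43 (5.36 ± 2.69) followed, each within the spread of its neighbours in this order, and Myo19 was lowest (2.06 ± 0.018). In mKate2- SB28 cells Tnfaip2 led (34.3 ± 2.08 CPM per kb), followed by Kif5b (25.8 ± 0.682) and Gja1 (25.5 ± 2.12), which did not differ beyond their spread. Myo10 (13.3 ± 0.31) and Rhot1 (12 ± 0.309) came next, then Trak2 (8.51 ± 0.189), Trak1 (6.90 ± 0.495), Rhot2 (5.11 ± 0.317), Myo19 (3.58 ± 0.397) and, last, Gap43 (0.666 ± 0.266). In mKate2+ cells the order was the same except that Gja1 (27.8 ± 1.93) stood above Kif5b (23.1 ± 2.81). The order depended on the length used, since Gja1 rather than Tnfaip2 led in SB28 cells (67.2 against 44.0 CPM per kb) when the longest transcript of each gene was taken.

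Counted together, 8 of the 10 genes passed the adjusted p threshold of 0.05 between astrocytes and mKate2- cells, 4 higher and 4 lower in astrocytes, where 63.1% of the 13356 genes tested passed it (33.8% higher and 29.3% lower). With a log2 fold change beyond 1 as a further criterion, 3 of 10 were called (Gap43 and Myo10 higher, Tnfaip2 lower), compared with 33.9% of all genes (22.4% higher and 11.5% lower). Levels of the groups did not overlap for 9 of the 10, 4 higher and 5 lower, compared with 70.9% of all genes tested (36.9% higher and 34% lower). Against mKate2+ cells, which were compared with the same astrocyte libraries, 7 of 10 passed the adjusted p threshold, 4 higher and 3 lower, compared with 60.1% of 13342 genes (32.1% higher and 28% lower). Gap43 and Myo10 were again called higher and Tnfaip2 lower, compared with 35% of all genes called (22.8% higher and 12.2% lower). Levels did not overlap for 8 of 10, 4 in each direction, compared with 68.4% of all genes (35.4% higher and 32.9% lower). Gap43 passed the filter on low counts through the astrocyte libraries alone in both comparisons, which bears on its direction. Without it, 3 of the other 9 genes were higher and 4 lower against mKate2- cells. Of the 11322 genes above the filter in both groups, 26.4% were higher and 33% lower. Against mKate2+ cells 3 of the 9 went in each direction, compared with 24.1% higher and 31.7% lower of 11265 such genes. The counts for the 10 genes, and for the 9 without Gap43, were near the shares among all genes compared, so they do not set the 10 genes apart. The median log2 fold change of the 10 genes was -0.10 against mKate2- cells and -0.075 against mKate2+ cells, compared with 0.038 and 0.018 over all genes tested. The called genes were Gap43, Myo10 and Tnfaip2 also without astrocyte replicate 3 and without mKate2+ replicate 2.

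**Figure D3:**
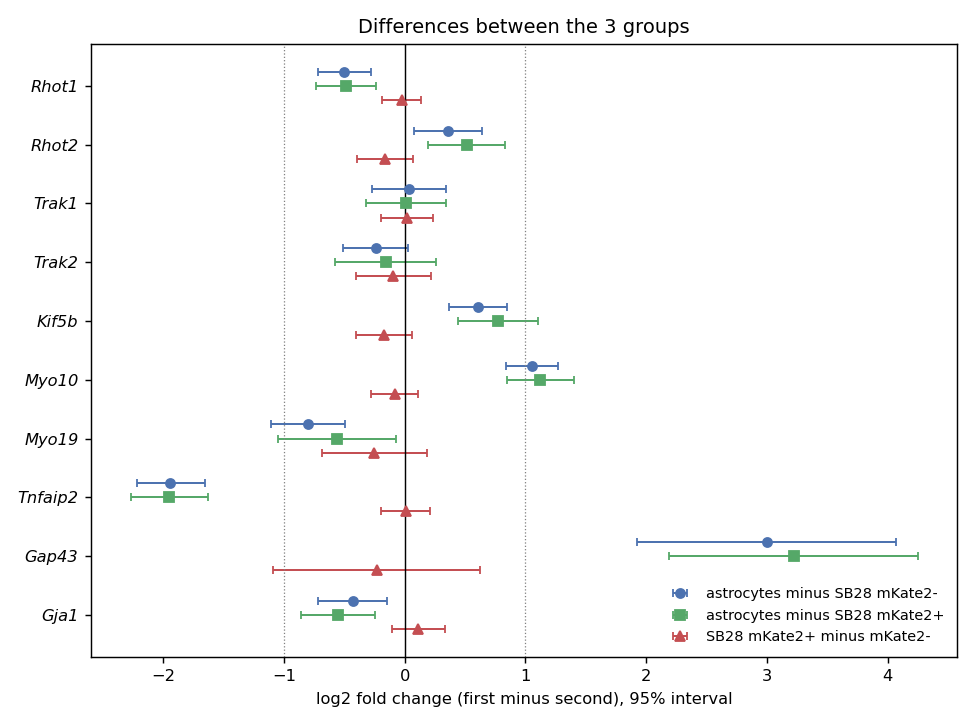
Log2 fold change with its 95% interval for each of the 10 genes in the comparisons of astrocytes with mKate2- cells, of astrocytes with mKate2+ cells and of mKate2+ with mKate2- cells (edgeR). Dotted lines mark a log2 fold change of 1 in either direction, which Gap43, Myo10 and Tnfaip2 exceeded in both astrocyte comparisons, and all 10 intervals of mKate2+ against mKate2- cells included 0.

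The comparison of mKate2+ with mKate2- SB28 cells asked whether cells that had received astrocyte mitochondria differed in these genes. None of the 10 passed at an adjusted p of 0.05 in edgeR or in DESeq2 (0% of 11854 genes in edgeR), and none had an unadjusted p below 0.05 in edgeR (2.03% of all genes). None met the criteria of a fold change above 1.5, an unadjusted p below 0.05 and a mean normalized count above 50, which 0.363% of all genes met (0.194% higher and 0.169% lower). Gap43, with 18 to 44 counts in each SB28 library, could not meet the count criterion whatever its fold change. The groups did not overlap for 1 of the 10 genes, Rhot2, which was lower in mKate2+ cells, compared with 9.34% of all genes (5.46% higher and 3.88% lower). Its level was 10.6% lower in mKate2+ cells, with a 95% interval from 24.1% lower to 5.16% higher.

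The precision differed among the genes. The 95% interval, in percent of the mKate2- level, ran from -12.1% to 9.96% for Rhot1, from -17.6% to 8.07% for Myo10, from -12.6% to 15.8% for Tnfaip2 and from -12.7% to 17.4% for Trak1. It ran from -7.15% to 26.2% for Gja1, from -24.4% to 4.09% for Kif5b and from -24.5% to 16.2% for Trak2. For Myo19 the interval ran from -37.9% to 13.4%, and for Gap43, with 18 to 44 counts a library, from -53.0% to 54.1%. A change of Gap43 within that interval was not detectable in these libraries.

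When mKate2+ replicate 2 was left out, the log2 fold change of Myo19 moved from -0.25 to -0.067, that of Kif5b from -0.17 to -0.090, that of Gja1 from 0.11 to 0.055 and that of Trak2 from -0.095 to 0.041. After removal of the trend with gene length, the log2 fold changes of Rhot1 (0.042) and Myo10 (0.011) changed sign and stayed near 0.

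**Figure D4:**
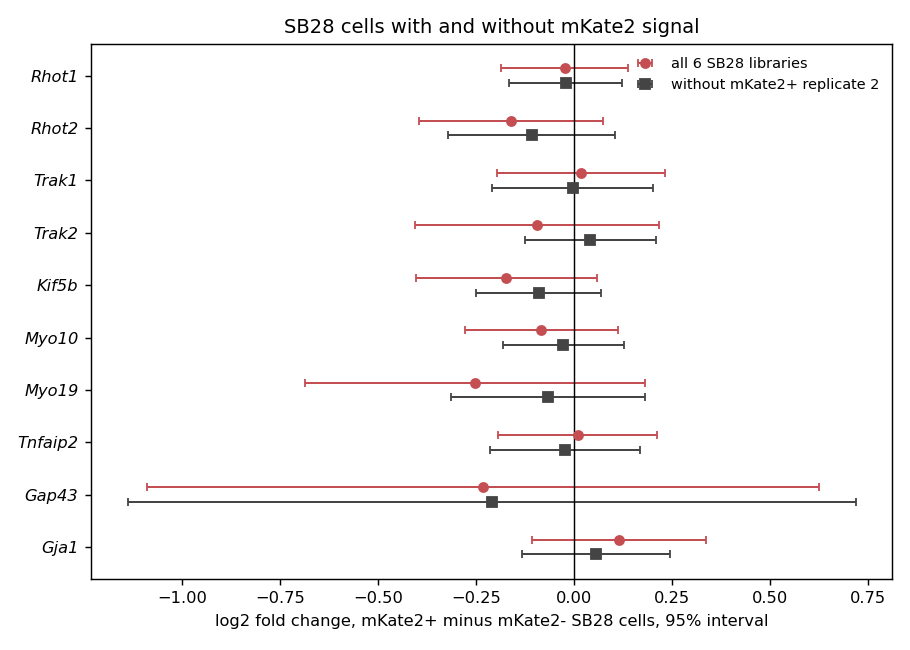
Log2 fold change of mKate2+ against mKate2- SB28 cells with its 95% interval for each of the 10 genes, from all 6 SB28 libraries (circles) and without mKate2+ replicate 2 (squares). All intervals included 0 in both fits, and the values of Myo19, Kif5b and Trak2 moved most toward or across 0 when that library was left out.

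Other genes of the same pathways were taken as 8 lists, and compared between astrocytes and mKate2- cells. Of the 13356 genes tested, 1682 passed the filter on low counts through the astrocyte libraries alone and 305 through the mKate2- libraries alone, which bears on the direction that such genes can show. The counts and medians of the lists are therefore given over the genes that exceeded 1 CPM in at least 2 libraries of each group, a choice made after the values were seen. Of all 11322 such genes, 26.4% were higher and 33% lower in astrocytes at an adjusted p below 0.05, with a median log2 fold change of -0.087. Of 19 mitochondrial motor adaptors tested, Armcx6, Disc1, Mgarp, Snph and Sybu passed the filter through astrocytes alone. Of the other 14, 7 were higher (4 without mKate2- replicate 3) and 2 lower in astrocytes, with a median log2 fold change of 0.20. Snph, which anchors axonal mitochondria to microtubules, was at 2.6, 1.92 and 7.42 CPM in astrocytes and at most 0.109 CPM in mKate2- cells (log2 fold change 5.48, adjusted p = 0.000352, and 4.65 without astrocyte replicate 3). Sybu, a kinesin-1 cargo adaptor, was at 8.7, 6.77 and 11.2 CPM compared with 0.33 to 0.725 CPM (4.07, adjusted p = 7.41e-05). The kinesin adaptor Fez1, at 220, 209 and 146 CPM in astrocytes and 58.0 to 68.1 CPM in mKate2- cells, was also higher (1.58, adjusted p = 0.000145), as was Ogt, the glycosyltransferase that modifies Trak proteins (1.21, adjusted p = 0.00106). Mgarp (3.53, adjusted p = 0.00405), Armcx6 (3.19, adjusted p = 0.00018) and Disc1 (2.24, adjusted p = 0.00402) were called higher too, though none exceeded 9.41 CPM in any library. Mgarp was highest in astrocyte replicate 3, at 6.49 CPM compared with 1.2 and 2.16 CPM, and its log2 fold change without that library was 2.56. Armcx2 (0.95), Armcx3 (0.52), Armcx1 (0.43) and Kif1bp (0.42) were higher by less at adjusted p of 0.0243 or below, and Armcx2 passed the log2 fold change threshold of 1 without astrocyte replicate 3 (1.02, adjusted p = 8.57e-05). Besides Rhot1, Mtx2, a metaxin of the outer mitochondrial membrane, was lower in astrocytes (-0.61, adjusted p = 0.00421), and Mtx1 (-0.26), Armc10 (-0.24) and Armcx5 (-0.20) did not pass the test.

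Of 14 kinesin-1 and related transport kinesin genes tested, all except Kif5a passed the filter in both groups. Of these 13, 10 were higher and 1 lower in astrocytes, with a median of 0.80. The neuronal kinesin Kif1a stood out at 133, 143 and 206 CPM in astrocytes and 0.581 to 1.56 CPM in mKate2- cells (log2 fold change 7.17, adjusted p = 8.44e-06). Kif1b, which carries mitochondria and synaptic vesicle precursors, was at 264, 294 and 406 CPM compared with at most 95 CPM (1.81, adjusted p = 7.78e-05). Kinesin light chains differed among themselves, with Klc3 (3.02, adjusted p = 9.67e-05) and Klc4 (1.61, adjusted p = 0.000333) higher in astrocytes, Klc2 lower (-0.50, adjusted p = 0.00826) and Klc1 not past the threshold (0.20, adjusted p = 0.197). Kif5a was called higher at low levels (2.28, adjusted p = 0.0112), and of the kinesin-2 genes Kif3c (1.03), Kif3b (0.80) and Kif3a (0.44) were higher at adjusted p of 0.0106 or below, as was Kif1c (0.62, adjusted p = 0.000868), while the kinesin-2 subunit Kifap3 did not pass (0.10, adjusted p = 0.525). Dynein and dynactin drive transport toward the cell center, and 23 of their 25 tested genes passed the filter in both groups (not Hook1 and Dync1i1). Of these, 11 were higher and 3 lower, with a median of 0.32. Without any 1 of the 3 mKate2- libraries 7 were higher, and the lower genes numbered 1 without astrocyte replicate 2 or mKate2- replicate 2 and 0 without mKate2- replicate 1 or 3. The dynein adaptors Hook1 (3.27, adjusted p = 0.00474, and 2.36 without astrocyte replicate 3) and Bicd1 (1.29, adjusted p = 0.000595) and the light chain Dynlt3 (1.08, adjusted p = 0.000269) were called higher. Dync1i1, at 0.0824, 0.296 and 4.34 CPM in astrocytes, did not pass with all libraries (0.595, adjusted p = 0.663). Without astrocyte replicate 3 its direction turned and it was lower in astrocytes (-2.37, adjusted p = 0.0128).

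Of 24 unconventional myosins listed, 14 were tested and 12 passed the filter in both groups, of which 6 were higher and 3 lower in astrocytes. Myo6, which moves toward the minus end of actin filaments, was at 122, 117 and 138 CPM in astrocytes and 15.4 to 22.2 CPM in mKate2- cells (log2 fold change 2.78, adjusted p = 1.1e-05). Myo16, which passed the filter through astrocytes alone, was also higher (5.12, adjusted p = 3.61e-05), and Myo1h, which passed it through mKate2- cells alone, was lower (-2.02, adjusted p = 0.000484). The nanotube and filopodium list was divided, with 10 higher and 10 lower of the 30 genes that passed in both groups, and a median of 0.073 (6 higher without mKate2- replicate 1). Eps8, an actin-capping and bundling protein, was at 68.8, 93.2 and 93.2 CPM in astrocytes and at 412 to 445 CPM in mKate2- cells (-2.35, adjusted p = 1.43e-05), and thus was lower in astrocytes like Tnfaip2. The formin Diaph3 (-1.31, adjusted p = 0.0019) and the GTPase Ralb (-1.18, adjusted p = 0.000262) were lower as well, while its relative Rala was higher in astrocytes (0.61, adjusted p = 0.00506). The exocyst gene Exoc4 was at 245, 288 and 337 CPM in astrocytes and 94.2 to 102 CPM in mKate2- cells (1.57, adjusted p = 5.48e-05), and the adhesion receptor Icam1, above the filter in astrocytes alone, was at 7.96, 7.04 and 13.5 CPM compared with at most 0.231 CPM (6.29, adjusted p = 6.85e-05).

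Of 15 tested genes of growth cones and tumor microtubes, Gap43, Ttyh1, Dpysl4, Dpysl5, Chl1 and Stmn2 passed the filter through astrocytes alone. Of the other 9, 3 were higher and 3 lower in astrocytes, with a median of 0.33 (0.074 without astrocyte replicate 1 and 0.13 without astrocyte replicate 2). Ttyh1, a membrane protein of glioma microtubes, was at 72.8, 76.2 and 50.5 CPM in astrocytes and 0.526 to 1.49 CPM in mKate2- cells (log2 fold change 6.14, adjusted p = 1.39e-05). The collapsin response mediators went both ways, with Dpysl4 higher (7.07, adjusted p = 3.43e-05) and Crmp1 lower (-2.42, adjusted p = 3.02e-05) in astrocytes. The adhesion protein Chl1 rested on astrocyte replicate 3, with 152 CPM compared with 1.4 and 2.31 CPM in the other astrocyte libraries, and its log2 fold change was 8.21 with and 3.40 without that library. Dpysl5 rested on the same library, at 29.1 CPM compared with 0.206 and 1.72 CPM. It was called higher with all libraries (4.45, adjusted p = 0.0337) and fell below the filter without astrocyte replicate 3. Of the related membrane-bound protein kinase C substrates, Marcks (1.06, adjusted p = 0.000225) and Marcksl1 (0.55, adjusted p = 0.0192) were higher in astrocytes. Basp1 did not pass with all libraries (0.33, adjusted p = 0.136) and passed without astrocyte replicate 3 (0.48, adjusted p = 0.0212). In mKate2+ replicate 2, Basp1 was at 196 CPM, compared with 95.9 to 115 CPM in the other SB28 libraries.

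Of 20 connexin genes, 5 had 0 counts in all 9 libraries and 5 passed the filter on low counts in the comparison of astrocytes with mKate2- cells. All 4 that passed it in both groups were lower in astrocytes, with a median of -2.02, and 3 of them passed the test without mKate2- replicate 2 or 3. Gjc1 (connexin 45) was at 7.13, 9.02 and 11.9 CPM in astrocytes and at 52.3 to 56.1 CPM in the 6 SB28 libraries. Its log2 fold change against mKate2- cells was -2.52 (adjusted p = 3.39e-05). Gja5 (connexin 40) had 9, 60 and 89 counts in astrocytes, 0 counts in all mKate2- libraries and 2 counts in mKate2+ replicate 3. It passed the filter through astrocytes alone and, set against a floor of 3 counts over the mKate2- group, it was at least 48-fold higher in astrocytes. Without astrocyte replicate 3, Gja5 fell below the filter. Of 9 tested pannexins and connexin 43 partners, all of which passed in both groups, 4 were higher and 2 lower (1 without astrocyte replicate 1, mKate2- replicate 1 or mKate2- replicate 3), with Dbn1, the actin-binding protein drebrin (1.81, adjusted p = 0.000165), Cdh2, N-cadherin (1.61, adjusted p = 1.93e-05), and Panx1 (1.54, adjusted p = 0.00114) called higher.

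**Figure D5:**
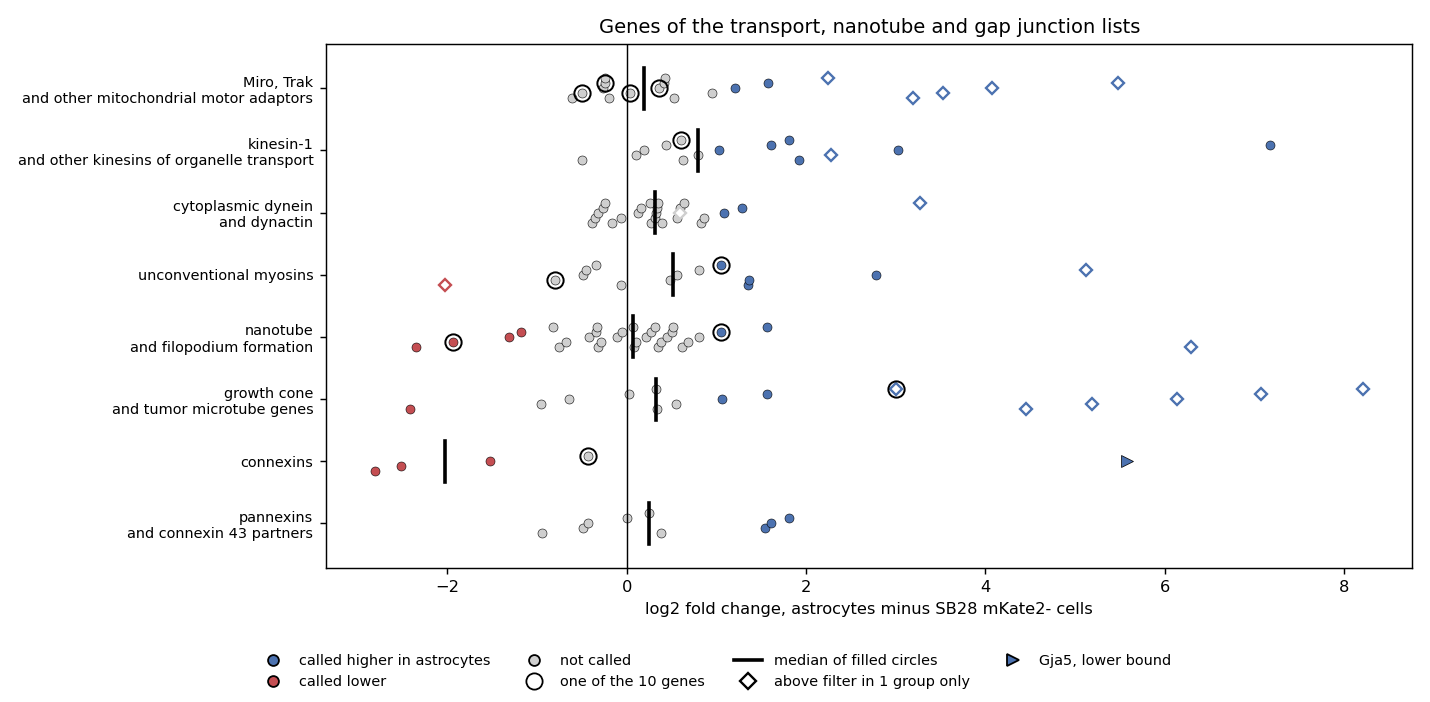
Log2 fold change of astrocytes against mKate2- SB28 cells (horizontal axis) for each tested gene of the 8 lists. Filled circles are genes above 1 CPM in 2 libraries of each group, with their median as a bar, and open diamonds are genes that passed the filter through 1 group alone. Rings mark the 10 genes described here, and the triangle is the lower bound for Gja5, which had 0 counts in mKate2- cells. The highest values were 8.21 for Chl1 (3.40 without astrocyte replicate 3), 7.17 for Kif1a, 7.07 for Dpysl4 and 6.29 for Icam1, while 4 of the 5 connexins lay left of 0.

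Against mKate2+ cells, measured against the same astrocytes, 24.1% of the 11265 genes that passed the filter in both groups were higher and 31.7% lower. In the lists, again over such genes, the counts were 7 higher and 2 lower of 14 adaptors, 10 and 1 of 13 kinesins, 7 and 4 of 23 dynein and dynactin genes and 6 and 1 of 12 myosins. They were 9 and 9 of 30 nanotube and filopodium genes, 2 and 3 of 9 growth cone genes, 0 and 4 of 4 connexins and 4 and 2 of 9 connexin 43 partners. With each of the 6 libraries left out in turn, the lower genes ran from 2 to 3 for adaptors, from 0 to 1 for kinesins, from 0 to 4 for dynein and dynactin, from 1 to 2 for myosins and from 1 to 2 for the partners. The higher genes ran from 4 (without mKate2+ replicate 3) to 10 for dynein and dynactin and from 5 (without mKate2+ replicate 1 or 3) to 9 for the nanotube list. Between mKate2+ and mKate2- cells, 0 genes of the 8 lists passed the adjusted p threshold in edgeR or DESeq2, 0 met the criteria on fold change, unadjusted p and count, and 1 of 117, Dynll2, had an unadjusted p below 0.05 in edgeR. Genes of low counts, such as Gap43, could not meet the criterion on count. The list medians lay between -0.195 for the myosins and 0.16 for the growth cone genes, compared with 0.0033 over all genes. Leaving out mKate2+ replicate 2 gave -0.060 and 0.00058.

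Gap43, Tnfaip2 and Gja1 were set beside all 13449 other expressed genes by Pearson correlation of log2 CPM, as a description of libraries that fall into 2 cell types. Over the 9 libraries, Gap43 was most like Ccdc13 (r = 0.9965), Dtx1, a Notch pathway ubiquitin ligase (0.9936), and Casp12 (0.9928), all higher in astrocytes. Tnfaip2 was most like Syt7, a calcium sensor of exocytosis (0.9986), Pde3b, a phosphodiesterase (0.9979), and the pseudokinase Trib1 (0.9976), which like it were higher in SB28 cells. Gja1 was most like Tram1 (0.9901) and Stt3b (0.9861), which act in protein translocation and glycosylation at the endoplasmic reticulum, and Cggbp1 (0.9809). Over the 6 SB28 libraries alone, Gja1 was most like Hadha (0.9900), Hpcal1 (0.9898) and Mypop (0.9895), none of which was among its closest genes over all 9.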

How the data were processed

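Gene expression was measured by RNA-seq in 9 libraries. Per the submitters' processing notes, the authors used Trimmomatic 0.36, STAR 2.5.2b, featureCounts and Subread 1.5.2 with GRCm38, and deposited raw counts of reads assigned uniquely to a gene. The astrocytes were stained with CellTrace Violet, but the sort gates as written assign that stain to tumor cells, so libraries were taken by their titles. GENCODE M21 named 49056 of the 49315 gene IDs and gave positions and exonic lengths.

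R 4.3.3 and edgeR 4.0.16 were used with TMM factors. A gene was tested where 2 or more of the 6 libraries in a comparison exceeded 1 CPM. P values were adjusted by Benjamini-Hochberg over all genes tested, and the alternatives included DESeq2 1.42.0. Astrocyte comparisons were called at adjusted p below 0.05 and absolute log2 fold change above 1. Family shares were compared with exact permutation tests. Procedures were tested on simulated data. Genes named were the 10, the 3 called genes of each list with the largest change in each direction against mKate2- cells, every gene of the adaptor, kinesin and connexin lists above 1 CPM in 2 libraries, relatives and partners of the 10, and the 3 genes most like Gap43, Tnfaip2 and Gja1. Some genes that this rule names are not reported here. The 10 genes and the lists were chosen with earlier results of these data known. Replicates within a group were separate co-cultures, and libraries of a group differed by more than counting noise (chi-square per degree of freedom 17.3 to 148). The groups were sorted from the same co-cultures, but the main tests took the libraries as unpaired. Their p-values therefore measure the spread between libraries within a group, without matching by co-culture.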

Additional observations from a re-analysis of the deposited data

How the results depend on the processing

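Directions and calls of the 10 genes between astrocytes and SB28 cells held under the alternatives tried except for Rhot2, Gja1, Myo19, Myo10 and Trak1. Rhot2 against mKate2- cells lost significance without a filter on low counts (adjusted p = 0.159) and with a replicate block (0.0734), and against mKate2+ cells without a filter (0.0629). Myo10 had a log2 fold change of 0.997 against mKate2- cells without a filter and then was not called. Myo19 against mKate2+ cells passed the threshold with DESeq2 (0.0384), without a filter (0.0424), with all 9 libraries in the fit (0.0228), with a gene length trend removed (0.0366), and with the replicate block and the length trend removed (0.0493). Trak1, near 0, changed sign without a filter (-0.018 against mKate2- and -0.053 against mKate2+ cells) and against mKate2+ cells with the replicate block (-0.00074), the length trend removed (-0.155) or both (-0.151). With each library left out in turn, Trak1 ran from -0.099 to 0.12 and from -0.11 to 0.088.

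Between mKate2+ and mKate2- cells, 0 of the 10 genes were called in any alternative, though Gap43 had a value in only 12 alternatives, compared with 14 for Gja1. At its counts Gap43 could not meet the study's criterion on count. Rhot1 and Myo10 changed sign with the length trend removed (0.042 and 0.011) and with the length trend removed in a fit with the replicate block (0.041 and 0.011), but not with the block alone (-0.024 and -0.087). With each library left out, Trak1 ran from -0.036 to 0.071, Trak2 from -0.20 to 0.041 and Tnfaip2 from -0.036 to 0.056. Differences in family share, in percentage points, ran from -0.775 to 4.18 for Trak1 (negative without mKate2+ replicate 2), from -0.797 to 0.273 for Kif5b (positive without mKate2+ replicate 1 and, at 0.0304, without mKate2- replicate 2) and from -0.436 to 0.965 for Gja1 (negative without mKate2- replicate 3). Among all genes, 23 were higher and 20 lower by the study's criteria. The higher count was 62 with DESeq2, 224 without a filter, 53 with all 9 libraries, 13 with the replicate block, 14 with the length trend removed, 12 with both, and 6 to 310 with a library left out, lowest without mKate2+ replicate 2 and highest without mKate2+ replicate 1. The lower count was 35 without a filter, 33 with the block and 16 to 70 with a library left out, again lowest without mKate2+ replicate 2 and highest without mKate2+ replicate 1. The cause of these shifts was not tested.

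Same-numbered libraries did not deviate together throughout (correlations of -0.147 to 0.251 over the pairs of groups), so the replicate numbers were not taken as pairs, and the block changed no other call of the 10 genes. In the edgeR fit with the block, Myo19 in mKate2+ against mKate2- cells had a log2 fold change of -0.28 (95% interval -0.57 to 0.0079, adjusted p = 0.783). The intervals of all 10 genes in that fit included 0. Gap43 had 18 to 44 counts in SB28 libraries, where its CV between libraries was 39.9% (mKate2-) and 26.5% (mKate2+). With 3 libraries a group the exact tests of shares cannot go below p = 0.1.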
